A study of Mus musculus with 4 samples.

Results

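The 10 genes of acyl-CoA hydrolysis and acyl transfer followed here in mouse liver are the acyl-CoA thioesterases Acot1, Acot2, Acot3, Acot4, Acot5, Acot8, Acot12 and Acot13, and the amino acid N-acyltransferases Acnat1 and Acnat2. They were chosen by name, through their Entrez gene numbers, with earlier results of these data known. All 10 were found among the 17543 genes of the deposited tables, each with a single listed transcript. The livers came from C57BL/6 mice, 2 from wild-type animals (WT) and 2 from animals carrying the K307R point mutation on both copies of Ezh2 (K307R), the catalytic subunit of the Polycomb repressive complex that methylates histone H3 at lysine 27. No Cre driver, tissue restriction, other allele or treatment is named for any liver. Age, sex and collection time are missing from the labels, as are litter and batch, and nothing in them says that the 2 livers of a genotype came from separate animals, so the p-values measure only the spread between these samples, which may be technical. The series asks how the point mutation changes liver gene expression.

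Acyl-CoA thioesterases cut the thioester bond of an acyl-CoA, releasing the free acid and coenzyme A, and so work against the acyl-CoA synthetases that charge fatty acids for oxidation or esterification. The type I enzymes (Acot1 to Acot5) share an alpha/beta-hydrolase fold and arose by local duplication in the mouse, with cytosolic Acot1, mitochondrial Acot2 and peroxisomal Acot3, Acot4 and Acot5 lying side by side. The type II enzymes (Acot8, Acot12 and Acot13) have an unrelated hotdog fold and sit in the peroxisome, the cytosol and at mitochondria. Acnat1, which joins fatty acids to taurine, and its close relative Acnat2 are peroxisomal and belong to the same family as the type I enzymes and the bile acid conjugating enzyme Baat. Several type I genes are textbook targets of PPARA, the fatty acid sensing nuclear receptor that liver uses in fasting.

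The 4 libraries held between 18602928 and 20044832 expected counts, which are the read numbers that RSEM estimates for each transcript. Ezh2 transcript itself was at 3.36 and 3.93 counts scaled to library size (CPM) in WT and 3.45 and 2.56 in K307R (adjusted p = 0.736, edgeR), which does not test the labels, since a point mutation can leave the transcript level as it is. The sex chromosome genes divided the libraries by genotype: Xist stood at 0.347 and 0.284 CPM in WT against 327 and 573 in K307R, and Ddx3y, Eif2s3y, Uty and Kdm5d were at 0 in both K307R livers and at 10.6 CPM or more in both WT livers. Of 17 clock genes, 5 were higher in K307R (Arntl, for example, by 3.97 on the log2 scale, adjusted p = 0.0034, edgeR) and 4 lower, and these counts were 3 and 6 without K307R 2, 5 and 7 without K307R 1 and 5 and 8 without WT 2. By the sex chromosome genes, both WT livers have the pattern of males and both K307R livers that of females. Genotype and sex therefore cannot be told apart in these 4 livers. Each difference between WT and K307R below is also one between these sex patterns. The part of time of day in the values below was not tested. The livers carried the markers of hepatocytes at a summed 142032 to 149798 CPM, with 0 of 12 markers called by edgeR (1 higher at an unadjusted p below 0.05, and 1 called by DESeq2). Of 8 stellate cell markers 2 were called higher, Dcn and Colec11 (5 higher and 1 lower at an unadjusted p below 0.05, 3 and 1 with DESeq2), and Acta2 lay the other way (log2 fold change -1.73, adjusted p = 0.136, edgeR), with summed levels of 95 and 141 CPM in WT and 294 and 231 in K307R. No marker was called by edgeR for Kupffer cells (8 tested, of which 4 were higher at an unadjusted p below 0.05 and 1 was called by DESeq2, 158 to 193 CPM in WT, 211 to 321 in K307R), sinusoidal endothelium (8, with 3 higher and 1 lower unadjusted, 90.6 to 110 against 128 to 152), cholangiocytes (6, with 1 higher unadjusted, 55.5 to 71.5 against 32.6 to 61.2) or lymphocytes and neutrophils (8, with 1 higher unadjusted, 21.6 to 21.8 against 18.9 to 28.1). Of 5 erythroid markers Alas2 was called lower, with sums of 437 and 553 against 674 and 770. The other 4, the globins Hbb-bs, Hbb-bt, Hba-a1 and Hba-a2, were above WT in both K307R livers and not called by edgeR, with 4 of the 5 higher at an unadjusted p below 0.05 and 3 called higher by DESeq2. The adipocyte and kidney markers summed to at most 0.46 CPM, with Plin1, Lep, Umod, Slc12a1 and Kap listed in no liver. The part of other cell types in the values below was not tested, and in whole liver fewer cells of a type and less RNA per cell cannot be told apart.

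The promoters are shown here for the 2 genes with the largest fold changes, Acot3 and Acnat2, for Acot4, which changed by less from the same cluster, and for Acot12, a liver thioesterase that was not called, so that their letters can be set beside the values below. Each runs from 250 bases before to 50 bases after the start given in RefSeq's promoter table for GRCm38.p6, the assembly also called mm10, 5′ to 3′ on the gene's strand. Capitals mark letters found in a search of both strands for AGGTCA, the half-site of nuclear receptors such as PPARA, for 2 such half-sites in a row with a 1-base spacer and at most 2 mismatches, and for the E-box CACGTG. The Acot4 and Acnat2 windows are chr12:84038129-84038428 on the plus strand and chr4:49408102-49408401 on the minus strand, and those of Acot3 and Acot12 are chr12:84051894-84052193 and chr13:91741271-91741570, both on the plus strand. The starts used for Acot4 and Acot12 lie after the first base of the gene spans given below, so these windows, the Acot4 one wholly and the Acot12 one in part, fall inside those spans.
Acot3: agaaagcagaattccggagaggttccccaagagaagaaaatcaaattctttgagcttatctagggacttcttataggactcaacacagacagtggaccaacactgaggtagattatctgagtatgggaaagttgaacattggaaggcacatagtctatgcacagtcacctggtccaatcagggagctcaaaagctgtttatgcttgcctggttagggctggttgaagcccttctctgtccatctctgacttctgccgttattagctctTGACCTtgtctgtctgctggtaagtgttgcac
Acot4: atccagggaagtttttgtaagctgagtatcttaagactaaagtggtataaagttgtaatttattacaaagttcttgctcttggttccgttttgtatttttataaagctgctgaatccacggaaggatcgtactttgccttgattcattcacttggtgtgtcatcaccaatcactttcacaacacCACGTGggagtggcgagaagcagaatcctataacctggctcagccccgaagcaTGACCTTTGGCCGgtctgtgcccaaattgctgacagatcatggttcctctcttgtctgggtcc
Acnat2: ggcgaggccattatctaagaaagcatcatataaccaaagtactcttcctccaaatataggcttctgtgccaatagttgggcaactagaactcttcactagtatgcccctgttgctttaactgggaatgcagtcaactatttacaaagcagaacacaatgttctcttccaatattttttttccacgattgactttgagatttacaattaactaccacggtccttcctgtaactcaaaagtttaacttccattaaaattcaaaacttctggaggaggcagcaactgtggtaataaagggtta
Acot12: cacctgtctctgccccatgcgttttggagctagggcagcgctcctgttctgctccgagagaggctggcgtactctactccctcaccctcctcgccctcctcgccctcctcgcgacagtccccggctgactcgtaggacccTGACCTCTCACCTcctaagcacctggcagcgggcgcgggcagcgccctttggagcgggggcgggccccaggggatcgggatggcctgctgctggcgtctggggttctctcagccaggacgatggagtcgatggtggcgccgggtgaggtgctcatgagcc

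Of the 10 genes, 9 have an entry in RefSeq's promoter table, Acot13 being the other. Besides those of Acot4 and Acot12, the windows of Acot8 and Acnat1 lie wholly inside their gene spans, and that of Acot5 for the most part. The counts over the 9 windows therefore include some that do not lie at the first base of the gene span. The half-site was found in 4 of 9, Acot3, Acot4, Acot5 and Acot12, and in 16.26% of 32851 promoters of that length. In Acot3 it lies after the start, 18 bases in. A direct repeat was found in 2 of 9, against 3.86% of promoters, and in both it includes the half-site: TGACCTTTGGCCG in Acot4, with 2 mismatches, begins 13 bases before the start, and TGACCTCTCACCT in Acot12, with 1 mismatch, begins 110 bases before it. The E-box was found in Acot4 alone among the 9, 66 bases before the start, and in 7.15% of promoters. The STAT-type letters TTCNNNGAA were in 0 of 9 windows and in 8.3% of promoters. In the Acnat2 window, whose gene had the smallest adjusted p of the 10, none of these letters was found, which says only that they are not in these bases.

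Of the 9 genes that could be tested, 4 were higher in K307R liver and 0 lower: Acot3, Acot4, Acnat1 and Acnat2, all of them peroxisomal. Without K307R 2 the count was 2, Acot3 and Acnat2. Over all genes, 178 of the 12837 tested, 1.39%, were called higher and 1.47% lower (edgeR, adjusted p below 0.05). The counts by compartment were 4 of 5 tested peroxisomal genes, 0 of 2 cytosolic genes and 0 of 2 mitochondrial genes, and by family 2 of 4 type I thioesterases, 0 of 3 type II thioesterases and both acyltransferases. At an unadjusted p below 0.05 edgeR also counted Acot1 and Acot2 as higher and 0 of the 9 as lower. DESeq2 called these same 6 higher and 0 lower, while voom called 3 higher and 0 lower. Over all genes DESeq2 called 378 higher and voom 153. The share of all genes at an unadjusted p below 0.05 is not given here, so unadjusted counts, here and for other lists, cannot be set against it. The median log2 fold change was 1.76 over the 9 genes and 0.01 over all tested genes. In 7 of the 9 both K307R livers lay above both WT livers, against 25.2% of all tested genes, and these 7 include the cytosolic Acot1 and Acot12 and the mitochondrial Acot2, which were not called. Because the genes were chosen with earlier results of these data known, an excess over the shares of all genes is a description only. No test was made between compartments, because genes are not replicates of a compartment, so the counts do not show that peroxisomal genes differ from the others.

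**Figure D1:**
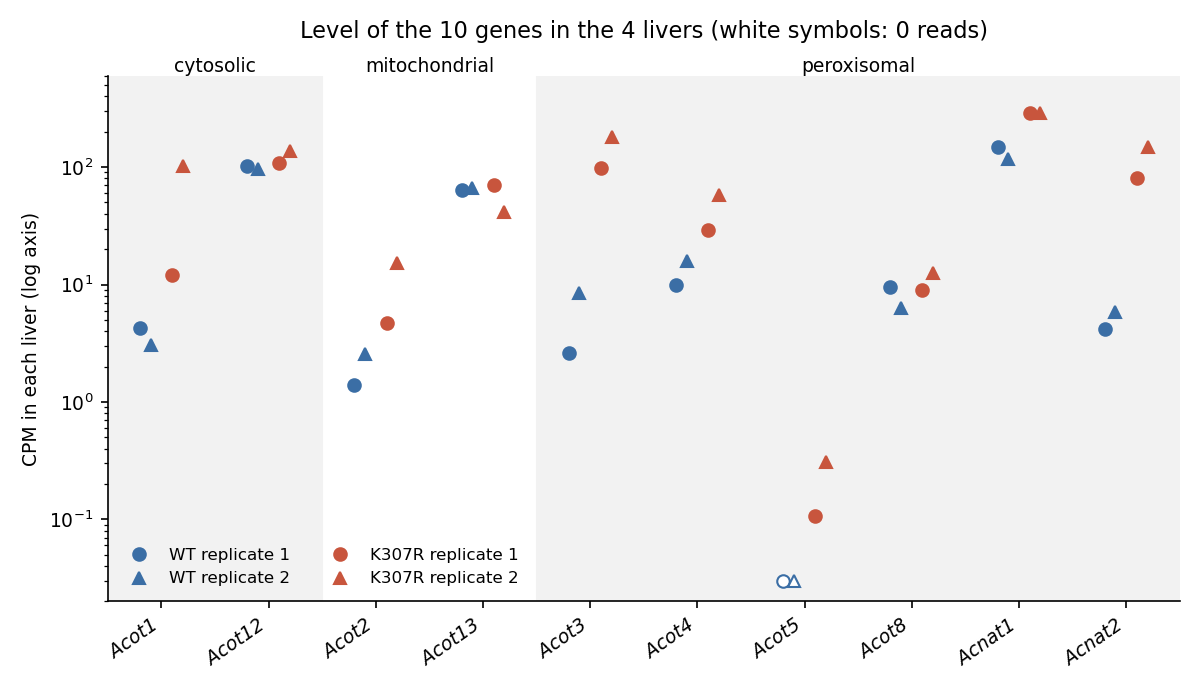
CPM of each of the 10 genes in each liver on a log axis, grouped by compartment, with WT in blue, K307R in red, circles for replicate 1, triangles for replicate 2 and white symbols for 0 reads. Acot3 and Acnat2 lie at 2.60 to 8.43 CPM in WT and at 80.2 to 181 CPM in K307R, while Acot8, Acot12 and Acot13 stay near their WT level.

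Acot3, a peroxisomal thioesterase for long-chain acyl-CoAs, lies at chr12:84052144-84060400. It stood at 2.60 and 8.43 CPM in WT and at 97.9 and 181 CPM in K307R. Both K307R livers were far above both WT livers, and the WT livers themselves differed by a ratio of 3.24. The mean went from 5.51 ± 4.12 to 139 ± 58.5 CPM (SD, n = 2), a log2 fold change of 4.64 (SE 0.55, 95% interval 3.37 to 5.91, adjusted p = 0.00712, edgeR). This was the 26th largest log2 fold change of all tested genes. It was 5.73 without WT 2 and 4.05 without WT 1, and it stayed called in each of the 14 other settings tried.

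Acot4 hydrolyses succinyl-CoA and other dicarboxylyl-CoAs in the peroxisome and lies just upstream, at chr12:84037254-84044723. Its level was 9.84 and 15.8 CPM in WT and 29.2 and 58.1 CPM in K307R. The genotypes did not overlap, and K307R 2 was about 1.99 times K307R 1. The log2 fold change was 1.76 (SE 0.36, interval 0.92 to 2.60, adjusted p = 0.0483, edgeR). The call rested on K307R 2: without that liver the value was 1.19, with an adjusted p of 0.115 (edgeR).

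Acot5, the medium-chain member of the peroxisomal type I group at chr12:84069077-84076024, had 0 expected counts in both WT livers and 2.39 and 5.96 in the K307R livers. It did not pass the filter on low counts and was not tested. Scaled to library size, the 8 rounded reads of the K307R livers stood at 2.67 times a floor of 3 reads over the WT livers. This takes the 8 reads as exact, so it is no lower bound on a change in Acot5. Of the 50-base stretches of Acot5, 14.09% also occur in Acot3, and the part of Acot3 reads in these counts was not tested. Acot8, the type II thioesterase of the peroxisome with a wide range of substrates that includes bile acid CoA esters, is at chr2:164792768-164820219. It stood at 9.55 and 6.30 CPM in WT and 9.07 and 12.5 CPM in K307R. The genotypes overlapped, and the log2 fold change was 0.45 (SE 0.29, interval -0.21 to 1.11, adjusted p = 0.489, edgeR).

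Acnat2, at chr4:49374458-49408151, stood at 4.17 and 5.82 CPM in WT and at 80.2 and 148 CPM in K307R. The 2 WT livers were close together and both K307R livers were far above them. The mean went from 4.99 ± 1.17 to 114 ± 47.6 CPM (SD, n = 2), with a log2 fold change of 4.50 (SE 0.36, interval 3.67 to 5.33, adjusted p = 0.00141, edgeR). Leaving out 1 liver at a time gave 4.0 to 4.88, and the call held in each of the 14 other settings.

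Acnat1, the taurine-conjugating enzyme, lies next to it at chr4:49443532-49481315. It was already well expressed in WT, at 149 and 116 CPM, and stood at 291 CPM in both K307R livers. The genotypes did not overlap, and the K307R livers were almost equal. The log2 fold change was 1.13 (SE 0.23, interval 0.61 to 1.66, adjusted p = 0.0451, edgeR). The size held without each liver (0.96 to 1.32), but the adjusted p was 0.112 without WT 2, 0.0919 without K307R 1 and 0.1 without K307R 2 (edgeR). The balance between the 2 acyltransferases differed by genotype. In FPKM, which scales reads to transcript length and depth, the ratio of Acnat1 to Acnat2 was 11.6 and 6.49 in WT. In K307R it was 1.18 and 0.639. The level of this ratio depends on the counted lengths, 5048 bases for Acnat1 and 1659 for Acnat2. The matching GENCODE transcript of Acnat1 has 1499 bases. In CPM, not scaled to length, Acnat1 stood above Acnat2 in both K307R livers, at 291 in both against 80.2 and 148. The WT and K307R ratios did not overlap, and with 2 livers against 2 an exact permutation test cannot give a two-sided p below 0.333.

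Acot1 is the cytosolic long-chain thioesterase and a classic PPARA target in liver. At chr12:84009502-84017670, it stood at 4.22 and 3.08 CPM in WT and at 12 and 103 CPM in K307R. Both K307R livers were above both WT livers, but K307R 2 was 8.58 times K307R 1. The log2 fold change of 3.98 had a wide interval (SE 0.88, 1.95 to 6.01) and was not called (adjusted p = 0.0593, edgeR). It was 1.72 without K307R 2 (adjusted p = 0.0555, edgeR) and was called without any 1 of the other livers, at 4.82 without K307R 1 (adjusted p = 6.22e-05, edgeR). Acot12, the cytosolic acetyl-CoA hydrolase at chr13:91741326-91786148, stood at 103 and 96.5 CPM in WT and 109 and 138 CPM in K307R. The groups did not overlap, but the log2 fold change was 0.31 (SE 0.20, interval -0.17 to 0.78, adjusted p = 0.507, edgeR).

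Acot2, the mitochondrial matrix counterpart of Acot1, is at chr12:83987861-83993877. It was the scarcest tested gene of the 10 by FPKM, and stood at 1.39 and 2.56 CPM in WT and 4.67 and 15.2 CPM in K307R. As for Acot1, the genotypes did not overlap and K307R 2 was the highest, 3.25 times K307R 1. The log2 fold change was 2.32 (SE 0.57, interval 1.0 to 3.63) and was not called (adjusted p = 0.0813, edgeR). Without K307R 2 it was 1.23. Acot13, a small long-chain thioesterase associated with mitochondria, lies at chr13:24817955-24831489 and stood at 63.4 and 65.8 CPM in WT and 70.6 and 41.6 CPM in K307R. K307R 2 was the lowest and K307R 1 the highest of the 4 livers, and the log2 fold change was -0.20 (SE 0.26, interval -0.81 to 0.40, adjusted p = 0.76, edgeR). Its sign turned without K307R 2, to 0.13.

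**Figure D2:**
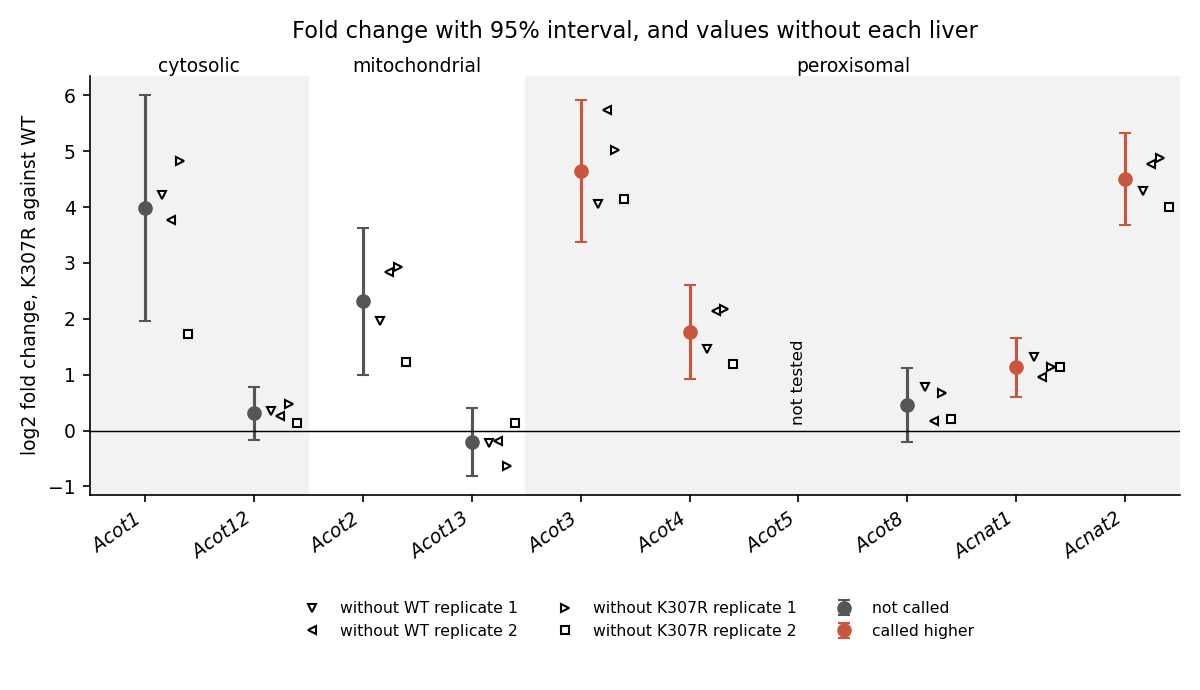
Log2 fold change of K307R against WT for the 9 tested genes (filled circles, red where called higher) with its 95% interval, and the value after leaving out each liver (open symbols). The value of Acot1 falls from 3.98 to 1.72 without K307R 2, while Acnat1 stays between 0.96 and 1.32.

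Per transcript length, the order of the genes differed between genotypes. In WT, Acot13 was the highest at 85.6 and 105 FPKM, followed by Acot12 (29.9 and 33.1) and Acnat1 (26.1 and 24.0), and these 3 did not overlap. The place of Acnat1 depends on its counted length of 5048 bases, where the matching GENCODE transcript has 1499. In CPM, not scaled to length, Acnat1 was the highest of the genes in both WT livers, at 149 and 116. Acot12 stood at 103 and 96.5 CPM there, and Acot13 at 63.4 and 65.8. Acot8 (mean 6.61 FPKM) and Acot4 (5.46) overlapped each other, as did Acnat2 (2.98), Acot1 (2.25) and Acot3 (2.14), with Acot2 at 0.89 and Acot5 listed at 0. In K307R, Acot13 (mean 86.7 FPKM), Acnat2 (71.0), Acnat1 (58.5), Acot3 (55.1), Acot12 (41.3) and Acot1 (38.4) overlapped from neighbour to neighbour, so their order is not resolved by 2 livers. Acot4 (19.3), Acot8 (9.70) and Acot2 (4.62) had lower means and did not overlap one another, but Acot1, at 7.82 and 69.0 FPKM, spanned the values of both Acot4 and Acot8.

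The summed FPKM of the 10 genes were 159 and 185 in WT and 319 and 450 in K307R. The peroxisomal genes took 25.5% and 23.8% of this sum in WT and 51.8% and 58.2% in K307R. The mitochondrial share, mostly Acot13, was 54.2% and 57.2% in WT and 34.5% and 16.1% in K307R. The mitochondrial sums themselves overlapped, at 86.2 and 106 FPKM in WT and 110 and 72.6 FPKM in K307R, against peroxisomal sums of 40.5 and 44.0 in WT and 165 and 262 in K307R. These 2 shares did not overlap between genotypes, whereas the cytosolic share did, at 20.3% and 19% in WT and 13.7% and 25.7% in K307R. Within the type I group the leading transcript differed as well: Acot4 made up 49.3% and 51.6% of the group's FPKM in WT and 20.9% and 14.9% in K307R, and Acot3 made up 11.6% and 24.5% in WT and 62.6% and 41.4% in K307R. The Acot1 share was uneven, at 31.6% and 15.1% in WT and 12.9% and 39.6% in K307R. The level of all these shares depends on the counted lengths, which are 5048 bases for Acnat1 and 2325 for Acot4. Their matching GENCODE transcripts have 1499 and 6203 bases. Which compartment or type I gene leads within a genotype is therefore not settled by these shares. The shares were not tested beyond the genes themselves.

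The 5 type I genes form a cluster of about 88.2 kb on chromosome 12, in the order Acot2, Acot1, Acot4, Acot3 and Acot5, and the 2 acyltransferases lie together on chromosome 4. In all 4 tested genes of the chromosome 12 cluster both K307R livers lay above both WT livers, against 25.2% of all tested genes. The log2 fold changes in this cluster were 1.76 to 4.64, and Acot1 and Acot2 were not called. Riox1, a histone and ribosomal protein hydroxylase gene on its left side, stood at 3.47 and 7.29 CPM in WT and 4.46 and 5.93 CPM in K307R (log2 fold change -0.06, adjusted p = 0.963, edgeR). Acot6, the type I relative on its right side, reached at most 0.41 CPM and was not tested. On chromosome 4, Baat stood at 235 and 165 CPM in WT and 263 and 200 CPM in K307R. The genotypes overlapped for Baat (log2 fold change 0.21, interval -0.40 to 0.82, adjusted p = 0.752, edgeR), while both of its acyltransferase neighbours were called. Plppr1, on the other side, had 0 and 2 reads in WT and 12 and 9 in K307R, without overlap, and did not pass the filter for testing.

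**Figure D3:**
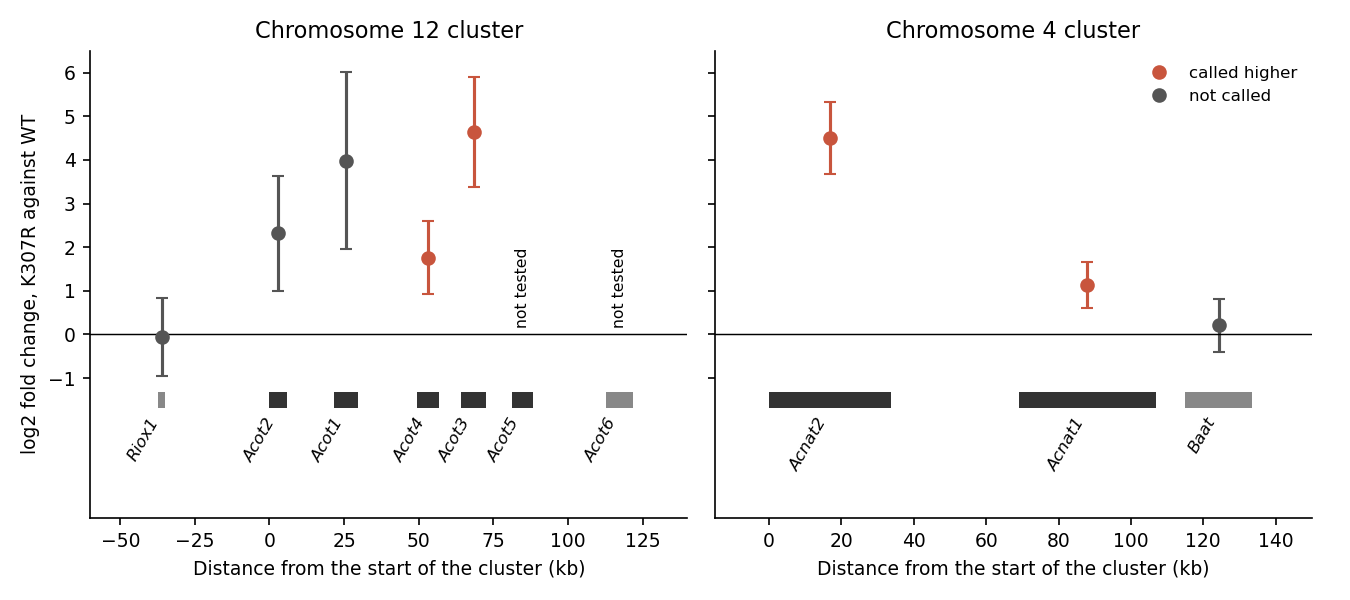
Log2 fold change with its 95% interval for the genes of the chromosome 12 and chromosome 4 clusters and their nearest neighbours, against distance in kb from the start of each cluster, with red for called higher and bars for gene bodies. Riox1 (-0.06) and Baat (0.21) lie near 0 beside cluster genes at 1.13 to 4.64.

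The genes share sequence with each other and with other genes, so their counts are uncertain one by one. Of the 50-base stretches of the matching GENCODE M21 transcript, which can be longer than the counted RefSeq one (6203 against 2325 bases for Acot4), 33.65% for Acot1 and 27.71% for Acot2 also occur in transcripts of other genes, mostly each other's. The share was 21.7% for Acot3, with 11.24% in Gm49366, 14.43% for Acot4, with 11.2% in 4732463B04Rik, and 22.8% for Acot5, with 14.09% in Acot3, and the stretches of Acnat1 (35.1%) and Acnat2 (31.52%) were shared with each other. RSEM divides reads of such stretches by estimate, and the part of this division in the values was not tested. Acot8 overlaps Snx21 and Zswim3, Acot12 overlaps the lncRNA gene 4833422C13Rik, and Acot3 and Acot4 overlap the lncRNA gene Gm40474 in RefSeq. Acnat1 overlaps the pseudogene Rbpj-ps2, the snRNA gene Gm26424 and the lncRNA gene Gm33009, and Acnat2 overlaps the pseudogenes Rbpj-ps1 and Gm12451. Of the 50-base stretches, 17.68% of Acot8 occur in Snx21 and 3.32% of Acot12 in 4833422C13Rik. No label or header gives the strand used in counting, so reads from bases that overlapping genes share cannot be told apart by strand.

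The 2 K307R livers differed in several of the genes at once. K307R 2 exceeded K307R 1 by over 1.5 times in 5 of the 9 tested genes, Acot1, Acot2, Acot3, Acot4 and Acnat2, against 9.32% of all tested genes. In the list of PPARA, its partners and its classic targets other than the 10 genes, 14 of 23 showed the same. Cyp4a14, a fatty acid omega-hydroxylase, stood at 11.8 and 63.4 CPM in WT and 250 and 1492 CPM in K307R, and its log2 fold change of 4.53 was not called (adjusted p = 0.0609, edgeR). It was 2.73 without K307R 2 (adjusted p = 0.101) and was called without WT 1 (3.78, 0.009), WT 2 (6.20, 0.000637) or K307R 1 (5.31, 0.00962). Acnat1 did not share this difference, and Acot3 and Acnat2 were called with or without K307R 2. The labels name nothing that separates the 2 livers, and the source of the difference was not tested.

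**Figure D4:**
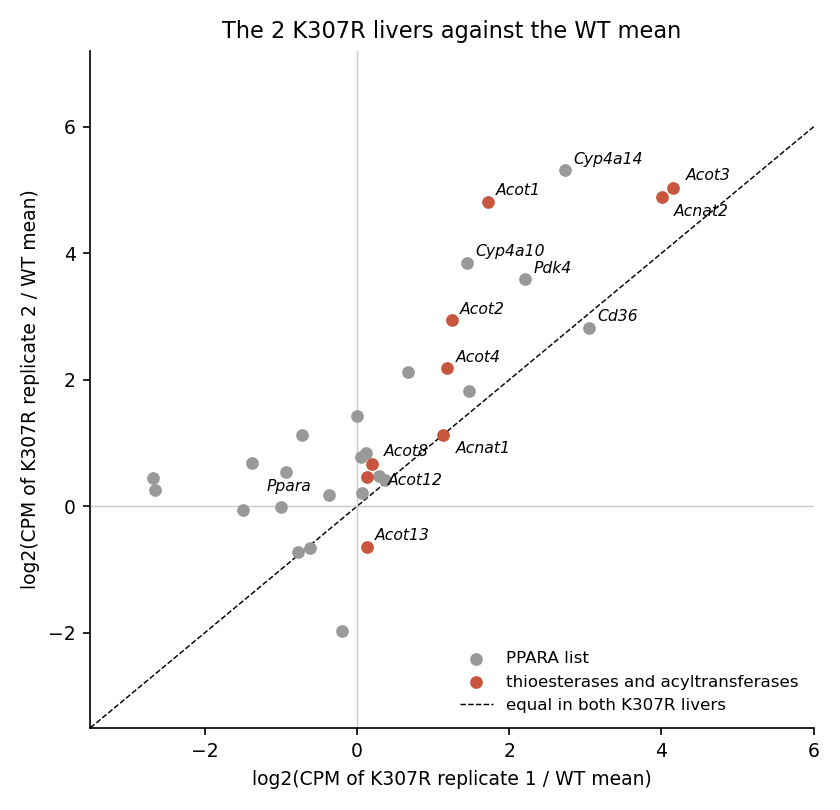
Log2 ratio to the WT mean in K307R replicate 1 (x axis) and in K307R replicate 2 (y axis), for the 9 tested genes (red) and the 23 genes of the PPARA list (grey), with a dashed line where both livers are equal. Acot1 (1.72 and 4.82) and Cyp4a14 (2.74 and 5.31) lie far above the line, and Acnat1 (1.13 and 1.13) lies on it.

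The wider acyl-CoA pathway was read from lists of genes named for their function. Of the other acyl-CoA thioesterases 0 of 9 were called by edgeR, DESeq2 or voom, and 0 had an unadjusted p below 0.05, with a median log2 fold change of -0.11. The smallest adjusted p among them was that of Ppt1, the lysosomal palmitoyl-protein thioesterase, at 0.464 (log2 fold change -0.32, edgeR). Of the 16 acyl-CoA synthetases tested, which run the opposite reaction, 1 was called higher and 1 lower. Acsl4, the ligase with a preference for arachidonic acid, stood at 127 and 119 CPM in WT and at 46.2 and 55.0 CPM in K307R. It fell by 1.28 on the log2 scale (adjusted p = 0.0182, edgeR), although the adjusted p was 0.061 without K307R 1. Acss3, a mitochondrial short-chain synthetase, stood at 4.69 and 2.60 CPM in WT and at 11.8 and 28.6 CPM in K307R. Its log2 fold change was 2.48 (adjusted p = 0.0363, edgeR), and 1.70 without K307R 2 (adjusted p = 0.0888, edgeR).

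Of 23 genes of peroxisomal beta-oxidation and its auxiliary enzymes, 3 were called higher and 0 lower, with a median of 0.38. Eci3, an enoyl-CoA isomerase, was nearly absent in WT at 0.116 and 0.331 CPM and stood at 9.5 and 9.36 CPM in K307R (log2 fold change 5.31, adjusted p = 0.00141, edgeR). Hacl1, the 2-hydroxyacyl-CoA lyase of alpha-oxidation, stood at 182 and 162 CPM in WT and 546 and 710 CPM in K307R (1.87, adjusted p = 0.0117, edgeR). For both of these genes the 2 K307R livers were well above the WT livers, and their calls held without each liver in turn. Crat, the carnitine acetyltransferase, was higher by 2.33 (adjusted p = 0.0481, edgeR), and by 1.44 without K307R 2 (adjusted p = 0.0869, edgeR). Crot, which makes medium-chain acylcarnitines in the peroxisome, had a log2 fold change of 1.90 and an adjusted p of 0.0515 (edgeR). It was 1.21 without K307R 2 (adjusted p = 0.115, edgeR), and it was called without WT 1 (0.00895), WT 2 (0.0399) or K307R 1 (0.00835). The count of 3 was 7 with DESeq2 and 2 with voom. In mitochondrial beta-oxidation 0 of 21 genes were called by edgeR (median 0.14), with 4 higher at an unadjusted p below 0.05, 1 called higher by DESeq2 and 0 by voom. Among them was Acadm, the medium-chain acyl-CoA dehydrogenase, at 0.76 (adjusted p = 0.124, edgeR). Of 18 peroxisome assembly genes 0 were called by edgeR, DESeq2 or voom (median 0.16), and 1 was lower at an unadjusted p below 0.05.

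Among 13 genes of coenzyme A synthesis and breakdown, Nudt7, the peroxisomal hydrolase of CoA and acyl-CoAs, stood at 1203 and 524 CPM in WT and at 200 and 168 CPM in K307R. All 4 values separate by genotype, and it fell by 2.23 on the log2 scale (adjusted p = 0.0322, edgeR). Without K307R 1 or K307R 2 its adjusted p was 0.0671 or 0.105 (edgeR). Vnn1, a pantetheinase that returns a CoA precursor, stood at 12.7 and 8.05 CPM in WT and 28.1 and 79.5 CPM in K307R (log2 fold change 2.38, adjusted p = 0.0436, edgeR), and without K307R 2 it was at 1.45 (adjusted p = 0.0592, edgeR). The other 11 were not called, including the pantothenate kinases Pank1 to Pank4.

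The PPARA list held 3 genes called higher and 0 lower of 23, with a median of 0.39. They were Cd36, a fatty acid uptake receptor (2.93, adjusted p = 0.00612, edgeR), Pdk4, a kinase that blocks pyruvate entry (3.06, adjusted p = 0.0189, edgeR), and Aldh3a2, a fatty aldehyde dehydrogenase (1.66, adjusted p = 0.0209, edgeR). The number called higher was 5 with DESeq2 and 2 with voom, with 0 called lower by either. Ppara itself stood at 231 and 195 CPM in WT and 165 and 242 CPM in K307R. Its level overlapped between genotypes (log2 fold change -0.07). These lists are described by their counts beside the 1.39% called higher over all genes, and no test of a list was made.

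**Figure D5:**
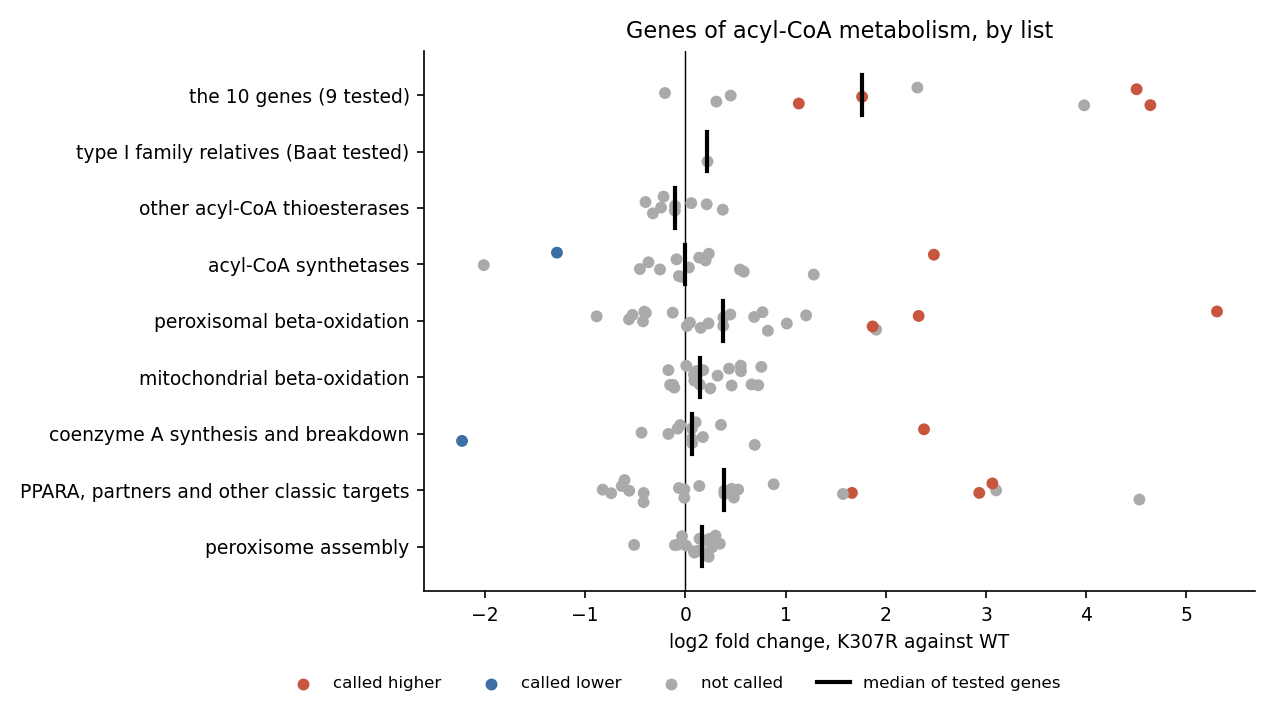
Log2 fold change of K307R against WT for each tested gene of the 10 and of 8 lists of acyl-CoA metabolism, with red for called higher, blue for called lower, grey for not called and a black bar for the median. The 10 genes have the rightmost median, 1.76, against -0.11 for the other acyl-CoA thioesterases and 0.38 for peroxisomal beta-oxidation. Genes and lists were chosen with earlier results of these data known.

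The genes with the most similar pattern over the 4 livers were found by the distance between centred log2 CPM values. These values carry a small added count, which shrinks differences for genes near 0 reads. For Acot3 they were the clock gene Npas2 (distance 0.57), Eci3 (0.809) and Acnat2 (0.909). For Acnat2 they included Gm28042 (0.602) and the clock gene Arntl (0.702). For Acot4 they were Rad51b (0.218), Gpx6 (0.282) and Sox4 (0.3), and for Acnat1 the bilirubin glucuronidating gene Ugt1a1 (0.0913), Btg1 (0.0976) and Slc17a1 (0.104). Ugt1a1, for example, stood at 441 and 371 CPM in WT and 918 and 877 CPM in K307R. Gm28042 had 0 expected counts in both WT livers and 21.6 and 38.0 in K307R, with a log2 fold change of 7.91 against 4.50 for Acnat2. Npas2 had 0 and 9 in WT, Eci3 1.9 and 6.56, Sox4 3 and 10, and Gpx6 5 and 12. The distances of these genes therefore depend on the added count. All distances here, over 4 libraries, are a description and carry no test.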

How the data were processed

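RNA of 4 livers was sequenced by BGI after TRIzol extraction, per the labels' protocols. The submitters' processing notes name HISAT, Bowtie2, RSEM and mm10. Not given in the sources used here were versions, the role of each aligner and the strand of counting. Each deposited table held the authors' unnormalized expected counts, RSEM's estimated counts per RefSeq transcript, and FPKM, which scale them for length and depth, per the file headers. Transcripts not listed for a liver were taken as 0.

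Expected counts were summed per Entrez gene and rounded. Symbols and coordinates came from RefSeq's table of GRCm38.p6 (99.8% of genes named). Genotypes were compared in R 4.3.3 by the quasi-likelihood F test of edgeR 4.0.16, with TMM factors of 0.896 and 1.055 (WT) and 1.014 and 1.043 (K307R), filterByExpr and genotype as the only term, leaving 2 residual degrees of freedom. Benjamini-Hochberg adjustment ran over the 12837 genes tested, and a gene was called below 0.05. CPM use TMM library sizes, errors are SDs of 2 livers, and 95% intervals were derived from each F statistic. The floor for a group at 0 was 3 reads and covers the counting error of that group only.

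Alternatives were other scalings, DESeq2 1.42.0, voom and limma-trend of limma 3.58.1 on log2(FPKM + 1) and log2(FPKM + 0.1), other filters, a replicate block and leaving out each liver. A simulation with known changes was run on the fit, but its outcome is not given here and adds nothing to the calls. The 10 genes and the lists were chosen with earlier results of these data known. Genes named beyond the 10 are, from each list, up to 4 with the smallest p, the 3 nearest patterns of each called gene, and the neighbours of the 2 clusters; 1 gene that this rule names is not reported here. Named outside this rule, after their values were seen, are single markers, Ppara, Uty and the pantothenate kinases. The 2 libraries of a genotype differed by more than counting noise, so neither was treated as a library deposited again; their origin in separate animals remains unstated.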

Additional observations from a re-analysis of the deposited data

How the results depend on the processing

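Over 14 alternative settings, 125 of 126 values of the 9 tested genes kept their sign, the exception being Acot13 without K307R 2, and the 4 called genes were still called in 46 of 56 values, all 56 with the same sign. Acot3 and Acnat2 were called in 14 of 14, Acnat1 in 10 and Acot4 in 8. The number of the 10 genes called higher was 6 with DESeq2 and 6 with no filter, 3 with total-count scaling, voom, either FPKM fit or a mean of at least 1 CPM, and 2 to 5 leaving out each liver (2 without K307R 2), with 0 called lower in each. Acot1 was called with DESeq2 (adjusted p = 0.0407) and with no filter (0.000835), and Acot2 with DESeq2 (0.00104).

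Over all genes, 178 were called higher and 189 lower. The counts were 378 and 386 with DESeq2, 410 and 419 with no filter, 94 and 69 with log2(FPKM + 1) and 91 and 70 with log2(FPKM + 0.1). Leaving out each liver gave 117 to 327 higher and 94 to 393 lower: 327 and 393 without WT 1, 302 and 305 without WT 2, 167 and 122 without K307R 1, and 117 and 94 without K307R 2. Total-count scaling gave 188 and 124, so that 60.3% of calls were higher against 48.5%. No scaling moved the median log2 fold change of all genes by over 0.1. The cause of these differences was not tested.

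The replicate numbers are not said to pair the livers, and same-numbered livers did not deviate together (correlation -0.0027). A fit with the replicate number as a block called 166 genes higher and 181 lower, and again 4 of the 10 genes higher and 0 lower: under the block Acnat1 had an adjusted p of 0.0517 and Acot2 one of 0.0274 (edgeR). Among the named pathway genes the block ended the calls of Acss3 (0.0648) and Vnn1 (0.0774) and added Cyp4a14 (0.000869). With 2 livers a genotype and common biological variation of 0.217, small differences could not be resolved, and values of Acot5, at 8 reads in all, are limited by depth.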

Other observations

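Bile acid conjugation is the other pathway in which a coenzyme A ester is joined to taurine. It was read together with bile acid side-chain shortening, from 8 genes that also belong to the lists or neighbours described above. Of these 8, 0 were called by edgeR, DESeq2 or voom and 0 had an unadjusted p below 0.05. Slc27a5, the bile acid CoA ligase, stood at 643 and 464 CPM in WT and 833 and 825 CPM in K307R, with both K307R livers above both WT livers (log2 fold change 0.58, interval -0.02 to 1.18, adjusted p = 0.313, edgeR). Scp2, which holds the peroxisomal thiolase of side-chain shortening, stood at 4396 CPM in WT 1 and between 1607 and 1869 CPM in the other 3 livers, and its log2 fold change of -0.89 (adjusted p = 0.317, edgeR) was -0.14 without WT 1 and -1.38 without WT 2 (adjusted p = 0.00897, edgeR). Amacr, the racemase of the same route, was at 150 and 111 CPM in WT and 89.2 and 109 CPM in K307R.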
